A study of Mus musculus with 4 samples.

Results

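The promoters described here belong to the genes of mouse oxidative phosphorylation, meaning the nuclear genes for subunits of complexes I to V of the inner mitochondrial membrane together with several assembly factors. They were chosen by gene symbol alone: protein-coding genes of the autosomes and X whose symbol starts with Nduf, Uqcr, Atp5, Cox4, Cox5, Cox6, Cox7 or Cox8, plus the 4 Sdh genes, Uqcc1, Uqcc2 and Cyc1. The rule found 99 of 21627 genes, and 80 of these 99 had a promoter window in the reference (250 bases before to 50 bases after the transcription start, RefSeq, GRCm38.p6), as did 17273 of all genes. By group, 41 genes encode subunits of complex I, 8 encode Ndufaf assembly factors of complex I, 4 encode complex II, 11 complex III with Uqcc1 and Uqcc2, 18 complex IV and 17 complex V.

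ATAC-Seq, in which a transposase cuts open chromatin, was used on bone marrow hematopoietic stem cells of Cpt1a fl/fl mice (control, labelled WT) and Cpt1a Δ/Δ mice (KO), with 2 libraries of each genotype. KO mice were Cpt1a fl/fl mice that also carried Vav1-Cre, which is active in blood-forming cells from development onward, so the deletion is neither acute nor limited to stem cells, and all mice were on a C57BL/6, CD45.2 background. Cells were enriched for c-Kit, sorted and cryopreserved. The labels call them ltHSC and the study's results call them HSPCs, and no source used here says whether the 2 libraries of a genotype came from separate mice.

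Each library came as its own list of peaks, holding 161962 to 196570 intervals on the autosomes and X, with the fold of each summit over its background and no read counts, so the depth behind the lists is unknown. The KO lists covered less sequence (42.6 and 44.4 Mb) than the control lists (52.9 and 48.9 Mb), with a median interval of 140 and 157 bases against 179 and 183 bases. Promoters of stem and progenitor genes (Kit, Cd34, Meis1, Hlf, Tal1, Runx1 and 4 others) had an interval in all 4 libraries in 10 of 10 cases, against 0 of 4 T cell and 0 of 3 erythroid promoters. Of the other lists, 2 of 2 B cell promoters (Pax5 and Cd79a, percentile 27.5 to 69.8), 3 of 4 myeloid and 1 of 3 non-blood promoters had one in all 4. The stem and progenitor genes named above stood at percentile 85.6 to 96.9, and Slamf1, Procr and Gata2 at 64.0 to 83.2. Mecom was weaker (69.8 and 49.2 in the controls, 43.6 and 5.24 in KO). The myeloid promoters with an interval in all 4 libraries were Lyz2 (76.5 to 84.3), Itgam (62.2 to 86.0) and Mpo (46.2 to 65.2). The non-blood one was Neurod1 (52.9 to 77.4). Slamf1, Procr, Gata2 and Mecom thus overlapped B cell, myeloid and non-blood promoters in rank. The T cell promoter Cd3g had an interval in control 2 and both KO libraries (53.8, 49.3 and 65.2). The erythroid promoter Epor had one in control 1 (31.6). The promoter of Cpt1a itself (chromosome 19, 3322683 to 3323572, mm10) had an interval in every library, and the deleted exons are not given in the sources used here, so these lists do not check the deletion.

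Oxidative phosphorylation passes electrons from NADH through complex I, or from succinate through complex II, to ubiquinone, complex III, cytochrome c and complex IV, and complex V uses the proton gradient so built to make ATP. Apart from complex II, each complex joins subunits from the mitochondrial genome, which are no part of these lists, to many more from nuclear genes scattered over the chromosomes. Promoters of the nuclear genes are classically described as CpG-rich and served by NRF1 and by GABP, a factor of the ETS family. Several complex IV subunits also exist as isoforms restricted to tissues such as muscle, lung or testis, beside a widely expressed form.

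The promoter windows of 6 of these genes are shown because the results turn on them. Sdhb, Atp5g2 and Uqcrc1 carry the NRF1 core, Ndufb3 had the interval that differed most in width between the genotypes, and Cox8a and Cox8b are the widely expressed and the muscle-type form of 1 complex IV subunit, of which Cox8a had an interval in every library and Cox8b in none. Letters are from RefSeq (GRCm38.p6), 5′ to 3′ on the strand of the gene. Capitals mark matches, on either strand, to the NRF1 core GCATGCGC (2 overlapping matches make the longer palindrome in Atp5g2 and Uqcrc1), the ETS core CCGGAAGT, the NF-Y box CCAAT and the TATA box TATAAA. The windows are Sdhb (chr4:140961021-140961320, plus strand), Atp5g2 (chr15:102670998-102671297, minus strand), Uqcrc1 (chr9:108936398-108936697, plus strand), Ndufb3 (chr1:58586147-58586446, plus strand), Cox8a (chr19:7217567-7217866, minus strand) and Cox8b (chr7:140900397-140900696, minus strand).
Sdhb: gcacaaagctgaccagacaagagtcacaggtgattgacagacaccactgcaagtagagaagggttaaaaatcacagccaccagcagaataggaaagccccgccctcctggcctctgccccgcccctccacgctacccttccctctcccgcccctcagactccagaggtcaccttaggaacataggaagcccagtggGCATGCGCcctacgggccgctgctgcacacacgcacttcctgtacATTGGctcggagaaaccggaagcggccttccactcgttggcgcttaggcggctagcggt
Atp5g2: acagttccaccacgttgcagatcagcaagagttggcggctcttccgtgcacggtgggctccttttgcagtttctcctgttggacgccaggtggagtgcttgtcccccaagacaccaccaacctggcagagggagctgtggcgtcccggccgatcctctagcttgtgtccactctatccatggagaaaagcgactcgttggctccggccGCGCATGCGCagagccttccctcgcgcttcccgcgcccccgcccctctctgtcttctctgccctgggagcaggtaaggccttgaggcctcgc
Uqcrc1: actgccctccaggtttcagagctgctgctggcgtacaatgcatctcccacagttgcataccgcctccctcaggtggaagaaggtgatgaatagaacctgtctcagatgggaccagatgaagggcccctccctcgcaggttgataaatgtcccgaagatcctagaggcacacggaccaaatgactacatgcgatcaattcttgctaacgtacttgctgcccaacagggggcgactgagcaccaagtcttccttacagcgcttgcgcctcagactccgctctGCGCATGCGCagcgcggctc
Ndufb3: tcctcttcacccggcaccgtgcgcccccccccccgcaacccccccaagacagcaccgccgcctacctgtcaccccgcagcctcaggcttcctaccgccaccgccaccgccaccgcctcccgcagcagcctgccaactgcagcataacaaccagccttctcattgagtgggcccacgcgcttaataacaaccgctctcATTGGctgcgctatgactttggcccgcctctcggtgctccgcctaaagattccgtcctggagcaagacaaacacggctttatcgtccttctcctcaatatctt
Cox8a: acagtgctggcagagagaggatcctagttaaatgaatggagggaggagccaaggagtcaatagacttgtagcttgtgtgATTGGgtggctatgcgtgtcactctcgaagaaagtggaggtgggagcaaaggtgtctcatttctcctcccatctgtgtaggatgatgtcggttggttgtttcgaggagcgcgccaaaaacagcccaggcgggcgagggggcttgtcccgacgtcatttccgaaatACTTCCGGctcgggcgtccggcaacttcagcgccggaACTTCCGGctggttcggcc
Cox8b: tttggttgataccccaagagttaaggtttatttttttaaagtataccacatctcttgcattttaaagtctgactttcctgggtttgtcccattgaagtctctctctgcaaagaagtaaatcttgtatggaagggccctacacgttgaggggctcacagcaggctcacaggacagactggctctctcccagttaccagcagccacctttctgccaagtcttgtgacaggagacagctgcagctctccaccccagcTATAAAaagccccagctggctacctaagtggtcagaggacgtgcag

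In these windows the NRF1 core lay 54 to 47 bases before the start in Sdhb, 42 to 33 bases before it in Atp5g2 and 30 to 39 bases after it in Uqcrc1. The ETS core occurred in Cox8a at 31 to 38 bases after the start and once more across the start itself. Cox8b held neither core and only 2 CpG dinucleotides, against 19 in Cox8a, and its TATA box lay 4 to 9 bases after the listed start. A match is a run of letters, not a bound site.

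Over all 80 windows the NRF1 core was found in 12 (15.0%), against 3.67% of all 17273 windows and 5.34% of the 11060 windows with an interval in all 4 libraries. The 12 genes were Atp5g2, Atp5k, Atp5l, Cox6a1, Ndufa6, Ndufa8, Ndufa11, Ndufaf4, Ndufaf5, Sdhb, Uqcr11 and Uqcrc1, so that every complex had at least 1. The core AAGATGGC of the YY1 motif was found in 11 windows (13.8%), 7 of them of complex I subunits, against 3.27% of all windows. ETS cores were found in 6.25%, against 5.40% of all windows and 7.97% of those with an interval in all libraries, whereas cytosolic ribosomal protein genes, another large set of broadly expressed genes, had them in 16.9% of 71 windows. NF-Y boxes (43.8% against 39.3%), the SP1 box GGGCGG (46.2% against 47.8%), the E-box CACGTG (7.5% against 8.04%) and TATA boxes (10.0% against 13.2%) were near the share of all windows. SP1 boxes were less frequent than in the 11060 windows with an interval in all libraries (67.4%). None of these shares was tested, since the genes were chosen as a list.

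The same windows were rich in CpG. The ratio of observed to expected CpG had a median of 0.828, against 0.599 in all windows and 0.769 in the 11060 windows with an interval in all libraries, at a GC content of 58.5%, 57.0% and 61.7%. Divergent starts were also frequent: 21 of 80 windows (26.2%) had the start of another gene on the opposite strand within 1000 bases, against 8.19% of all windows and 12.4% of those with an interval. In 24 of 77 cases (31.2%) the interval covered the promoter of another gene as well, against 14.2% of all promoters with an interval in each library. Partners included Gabpa, which encodes the DNA-binding subunit of GABP and shared its interval with Atp5j, and 3 genes of mitochondrial or ribosomal proteins: Timm8b beside Sdhd, Mrpl47 beside Ndufb5 and Rps28 beside Ndufa7. For such pairs an interval cannot be given to 1 of the 2 genes.

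Nearly all promoters of the set were open in every library. An interval overlapped the window in all 4 libraries for 77 of 80 genes (96.2%), against 64.0% of all protein-coding promoters, 63 of 71 ribosomal protein promoters (88.7%) and 13 of 13 promoters of beta-oxidation enzymes. The 3 others, Ndufb4b, Cox7b2 and Cox8b, had no interval in any library. Ndufb4b is named for its likeness to the complex I gene Ndufb4, whose own promoter was open in all 4 libraries.

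Signal was compared by rank within a library: the percentile of an interval is the percent of all intervals of that library with a lower fold, so that 98 means stronger than 98% of them. Median percentiles of the 77 promoters were 98.4 in control 1, 97.7 in control 2, 98.4 in KO 1 and 98.3 in KO 2, with a median fold between 17.9 and 19.5. Promoters of all genes had medians of 95.2, 94.4, 95.7 and 95.3, and ribosomal protein promoters 98.3, 97.7, 98.2 and 98.0. In all, 61 of the 77 (79.2%) reached percentile 95 in each of the 4 libraries, against 42.4% of the 11060 promoters of all genes. The strongest point of the interval lay close to the start, at a median of 25 to 29 bases before it, and within 150 bases of it for 80.5% to 85.7% of the genes, against 74.5% to 75.3% of all promoters.

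**Figure D1:**
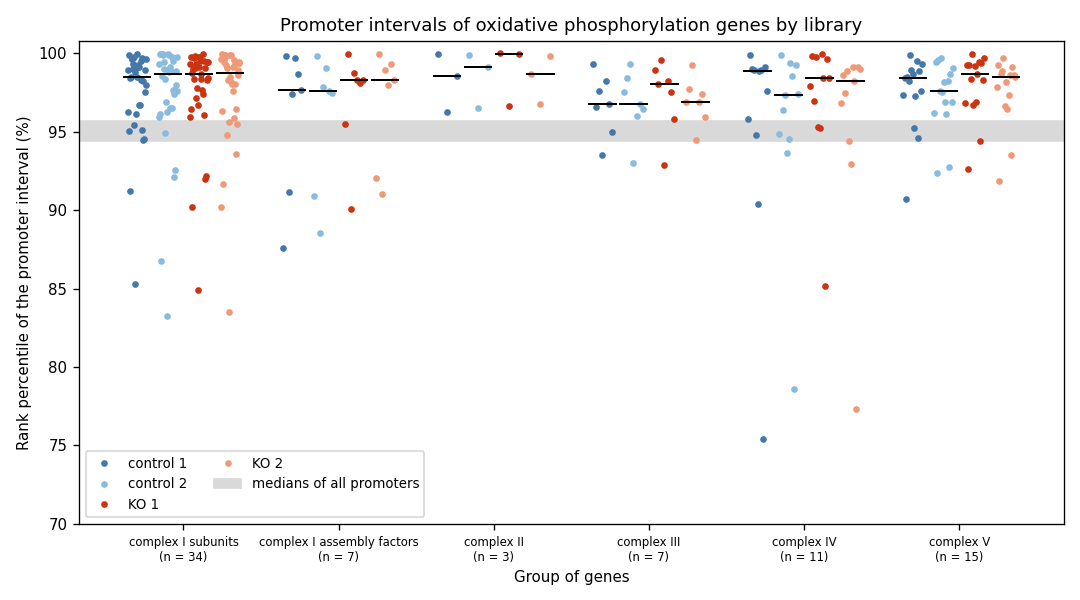
Rank percentile of the promoter interval (y axis, in percent, from 70 to 100) by group of genes (x axis), with a point for each gene in each of the 4 libraries, a black bar for the median of a group in a library and a grey band for the medians of all promoters (94.4 to 95.7). Most points of every group lie above the band in all 4 libraries, and the low point of complex IV is Cox7b.

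The complexes differed little in their medians. In complex I subunits the medians were 98.5, 98.7, 98.7 and 98.8 (control 1, control 2, KO 1, KO 2, the order used throughout), in complex III 96.8, 96.8, 98.0 and 96.9, in complex IV 98.9, 97.3, 98.4 and 98.2, and in complex V 98.4, 97.6, 98.7 and 98.5. The range within a complex was wider than any gap between complexes. Ndufb3, a membrane-arm subunit, was highest in complex I at 99.96, 99.96, 99.76 and 99.91. Ndufb10, also of the membrane arm, was lowest at 85.3, 83.2, 84.9 and 83.5. Ndufb10 thus ranked low in all 4 libraries and did not separate the genotypes.

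Among the assembly factors of complex I, Ndufaf2 was highest (99.8, 99.8, 99.9 and 99.9) and Ndufaf3 lowest (91.1, 88.5, 90.1 and 91.0). In complex III, the small subunits Uqcr10 and Uqcr11 had the highest and the lowest mean percentile of the 7 genes with a listed window. Uqcr10 had 97.6, 99.3, 99.6 and 99.2. Uqcr11 had 93.5, 93.0, 92.8 and 94.5. In complex V the highest was Atp5g2, 1 of 3 genes for subunit c of the rotor (99.9, 99.7, 99.9 and 99.7), and the lowest was Atp5d, which encodes the delta subunit of the F1 part (90.7, 92.4, 92.6 and 91.8).

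Cox5b, a peripheral subunit of complex IV, stood at 99.9, 99.9, 99.8 and 98.6, and Cox7b, the X-linked gene of a small membrane subunit, at 75.4, 78.6, 85.1 and 77.3. Cox7b was thus the weakest promoter of the set in both controls and in KO 2 (Ndufb10 was in KO 1), with a window of 5 CpG dinucleotides and a CpG ratio of 0.368. Over all genes, 383 X-linked promoters had medians of 94.9, 94.2, 95.3 and 94.4, beside 95.2, 94.4, 95.7 and 95.3 for autosomal promoters. The other X-linked promoters of the set were below its medians in every library. Ndufb11 stood at 96.1, 96.2, 96.7 and 95.6, and Ndufa1 at 96.3, 95.9, 95.9 and 90.2. Whether the chromosome bears on these ranks was not tested.

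The study probed subunits of each complex at the protein level, and its methods and a figure legend name different antibodies for complexes I, III and IV. The methods name 4 proteins whose genes are in the set. Ndufa13, the complex I subunit also known as GRIM19, had 91.2, 86.8, 90.2 and 91.7. A second interval next to this promoter (chromosome 8, 69902706 to 69903516) was stronger, at 94.7, 93.8, 93.9 and 96.6. Ndufa13 was thus among the lower promoters of complex I in each library. Sdha, the flavoprotein of complex II that oxidizes succinate, had 99.91, 99.90, 99.98 and 98.66. Uqcrc1, a core subunit of complex III, had 98.2, 96.0, 98.2 and 96.9. Atp5a1, the alpha subunit of complex V, has no listed window, and the leading interval of the gene had 98.5, 99.3, 98.5 and 99.1. The genotypes overlapped in these 4 genes. Of the genes that the legend names in place of those of the methods, Ndufa9 (95.4, 94.9, 97.2 and 94.8) overlapped as well. So did the leading interval of Cox4i1, taken here as the gene of COX4a (96.8, 95.5, 95.8 and 96.3). Uqcrc2, by its leading interval, ranked lower in both KO libraries (99.3, 99.6, 98.8 and 98.6).

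Of the other complex II genes, Sdhb (the iron-sulfur subunit) had 96.3, 96.5, 96.6 and 96.8, and Sdhd (a membrane anchor) had 98.5, 99.1, 99.9 and 99.8. In both, the 2 KO values lay above the 2 control values, by 0.31 and 1.04 points of the mean. The leading interval of Sdhc, the other anchor, had 99.0, 99.8, 99.6 and 98.9, with overlap between the genotypes. With 3 listed promoters, 2 of them higher, complex II is too small to set against the 28.8% of all promoters that were higher.

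The restricted isoforms of complex IV were the main exception to openness. Cox8b and Cox7b2 had no promoter interval, Cox6a2, the heart and muscle form of subunit 6a, had no interval in the gene or within 1 kb of it, and Cox8c had a weak one in control 1 alone (percentile 48.8). Cox4i2, the lung-enriched form of subunit 4, had a leading interval of 81.9, 76.3, 78.2 and 67.9. Against these, Cox6b2 (94.8, 93.7, 95.3 and 94.4) and Cox7a1 (90.4, 94.5, 95.3 and 92.9) had a promoter interval in all libraries, as had Ndufa4l2 a leading one (88.4, 87.7, 92.0 and 91.8). The windows of the 4 restricted isoforms with a listed start had a median CpG ratio of 0.382, against 0.820 for 6 widely expressed partners.

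The partners were Cox4i1 (96.8, 95.5, 95.8 and 96.3, leading interval), Cox6a1 (99.0, 96.4, 96.9 and 97.4), Cox6b1 (98.9, 97.3, 99.7 and 98.9), Cox7a2 (98.9, 99.4, 99.9 and 99.1), Cox8a (97.6, 97.4, 98.4 and 99.0), Ndufa4 (98.5, 98.5, 99.0 and 99.6) and Cox7b. In each pair the widely expressed form ranked above its restricted form in every library. No restricted isoform without a promoter or leading interval in the controls had one in a KO library. Ndufa4 is grouped with complex I by its symbol, although its protein is now assigned to complex IV.

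**Figure D2:**
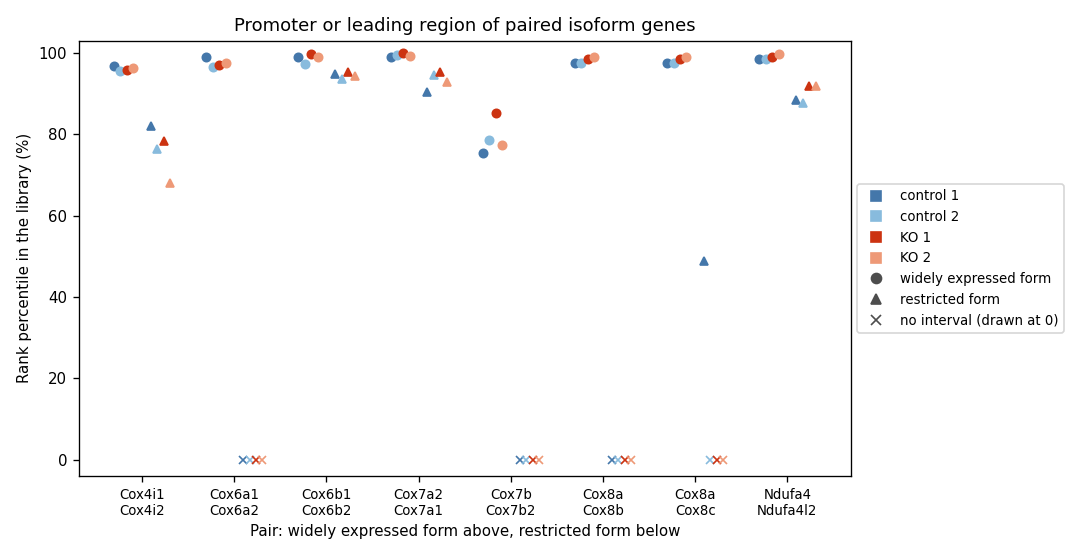
Rank percentile (y axis, in percent) of the promoter or leading interval of each pair of isoforms (x axis), with the widely expressed form as circles, the restricted form as triangles and a cross at 0 where a library had no interval, coloured by library. Circles lie above triangles in every pair, and Cox6a2, Cox7b2 and Cox8b are crosses in all 4 libraries.

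Genotypes were compared by whether both KO values lay beyond both control values, because without read counts no count model could be fitted and the exact permutation test (two-sided) of 2 libraries against 2 gives no p under 0.333. By this rule 22 of 77 promoters (28.6%) ranked higher in both KO libraries and 8 (10.4%) lower, while 47 overlapped. Across all 11060 promoters the shares were 28.8% higher and 9.46% lower, so the shares of the set were close to those of promoters at large. The median difference, KO minus control, was 0.30 percentile points (52 above 0 and 25 below), against 0.48 points for all promoters.

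Differences were small. The median absolute difference between the genotype means was 0.486 points. Single libraries differed by 0.622 points within control and by 0.592 within KO. A mean of 2 libraries varies less than a single library, so this order cannot show whether genotypes differed more than replicates. All promoters had the same order (1.05 points, beside 1.28 and 1.16). Only 5 of 77 promoters (6.49%) of the set moved by over 2 points. The set lies near the upper end of the scale, which leaves little room for upward moves. Sizes in the set are therefore not compared with those of promoters at large. For 2 of these 5, Cox7b and Ndufa1 (96.3, 95.9, 95.9 and 90.2), the genotypes overlapped and 1 KO library made the difference. The direction of the median depended on the intervals used. When only intervals whose −log10 q reached 5 were ranked it was -0.41 points, against -0.76 points for all promoters. At that setting 12 promoters were higher (15.6%, against 11.9% of all promoters) and 14 lower (18.2%, against 21.9%), so no direction is given for the set. Ranking by −log10 p gave 24 higher (31.2%, against 25.7% of all promoters) and 4 lower (5.19%, against 9.76%). Ranking among promoters only gave 13 higher (16.9%, against 18.2%) and 10 lower (13.0%, against 17.5%).

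**Figure D3:**
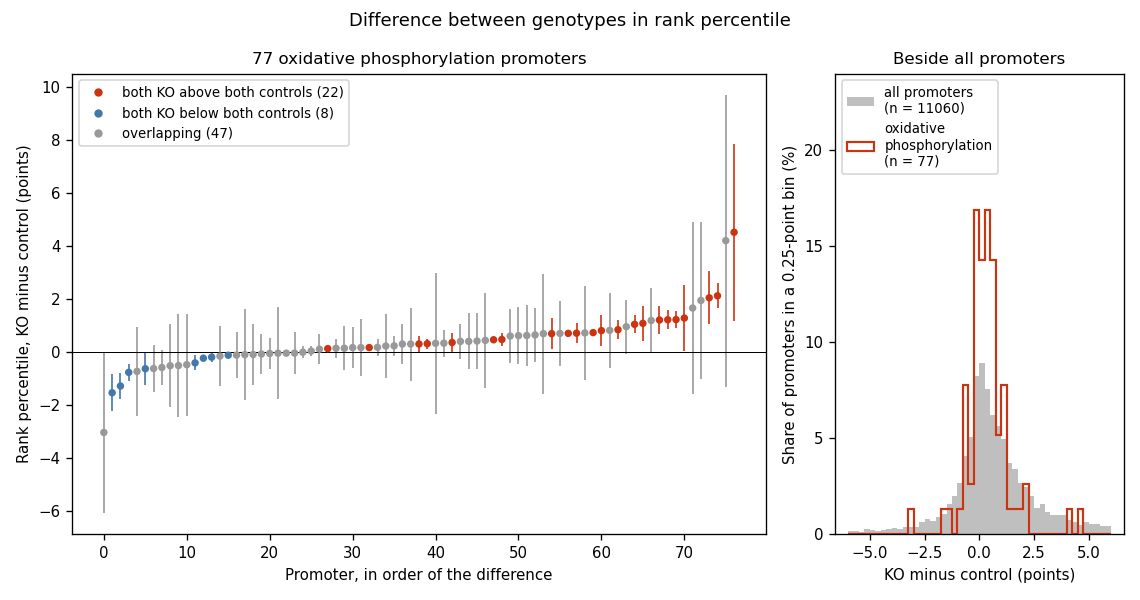
Left, difference in rank percentile, KO minus control, in points, for each of the 77 promoters in order of the difference, with the point at the difference of means and the line spanning the differences between single libraries; red marks 22 promoters higher in both KO libraries, blue 8 lower and grey 47 overlapping. Right, share of promoters (percent) in bins of 0.25 points between -6 and 6, with the 77 as a red outline and all 11060 promoters in grey: both peak near 0.

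The 5 promoters with the largest difference among the 22 belonged to 3 complexes. Ndufaf1, an assembly factor that acts with the intermediate membrane arm of complex I, stood at 87.6 and 90.9 in the controls and 95.5 and 92.0 in KO, a difference of 4.51 points. Ndufb7 had 96.7 and 96.5 against 98.3 and 99.1 (2.11 points). Cox5a, a peripheral subunit of complex IV, had 95.8 and 94.9 against 97.9 and 96.8 (2.04 points). For Ndufaf1 the gap between the closest KO and control library was smaller than the gap between the 2 controls, whereas for Ndufb7 it was larger. Atp5j2, a subunit of the membrane part of complex V, had 97.3 and 96.1 against 98.7 and 97.3. Ndufaf4, another complex I assembly factor, had 97.4 and 97.9 against 98.8 and 98.9. Of the 7 assembly factors of complex I with a window, 4 were higher and 1 lower, beside 28.8% and 9.46% of all promoters, and so small a group cannot be set apart from them.

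Promoters that ranked lower in both KO libraries differed by at most 1.54 points. Atp5g3, another gene of subunit c, had 98.9 and 97.5 in the controls against 96.7 and 96.7 in KO, a difference of -1.54 points. Ndufaf5, an assembly factor of complex I, had 99.7 and 99.1 against 98.3 and 97.9 (-1.29 points). Ndufb6 had 99.1 and 99.1 against 98.6 and 98.0 (-0.78 points). All 3 stayed above percentile 95 in every library. Cox5b (-0.64 points) and Cox7a2l (-0.42 points), the latter a factor of supercomplex assembly, came next. The 3 genes of subunit c did not move alike: Atp5g1 was higher in both KO libraries (98.2 and 97.6 against 98.3 and 98.9), Atp5g2 overlapped and Atp5g3 was lower, and the difference between them was not tested.

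Intervals of the set tended to be narrower in the KO libraries, as did those of promoters at large. The covered width of the 77 promoters had a median of 921 and 961 bases in the controls and 844 and 853 bases in KO, with a median log2 ratio of -0.12 (KO over control), against -0.13 for all promoters. The width was below that of both controls in both KO libraries for 25 of 77 promoters (32.5%) and above it for 0, against 42.4% narrower and 4.58% wider of all promoters. The median absolute log2 difference between genotype means was 0.125, beside 0.129 for the 2 controls and 0.197 for the 2 KO libraries. For all promoters these values were 0.156, 0.129 and 0.160. As with rank, means were set beside single libraries, so no conclusion is drawn from the order. The shorter intervals of the KO lists as a whole move with the narrower promoters, and their part in the narrowing was not tested.

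Ndufb3 narrowed most. Its intervals covered 1335 and 1206 bases in the controls and 821 and 806 bases in KO, a log2 ratio of -0.64. The highest-ranking KO interval began 223 and 231 bases before the start, against 855 and 737 bases in the controls. Weaker KO intervals lay farther upstream, 507 to 307 bases before the start in KO 1 (percentile 60.1) and 509 to 404 in KO 2 (3.69). The stretch beyond these, covered in both controls, lies on the side of Fam126b, whose promoter is divergent from that of Ndufb3 and shares the region. Cox5b covered 737 and 880 bases against 566 and 605 bases (log2 ratio -0.47). Ndufaf2, which shares its interval with the DNA repair gene Ercc8, covered 1065 and 1277 bases against 796 and 960 bases (-0.42) while its rank was slightly higher in both KO libraries. Width and rank did not go together: of the 25 narrower promoters 9 ranked higher and 3 lower.

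**Figure D4:**
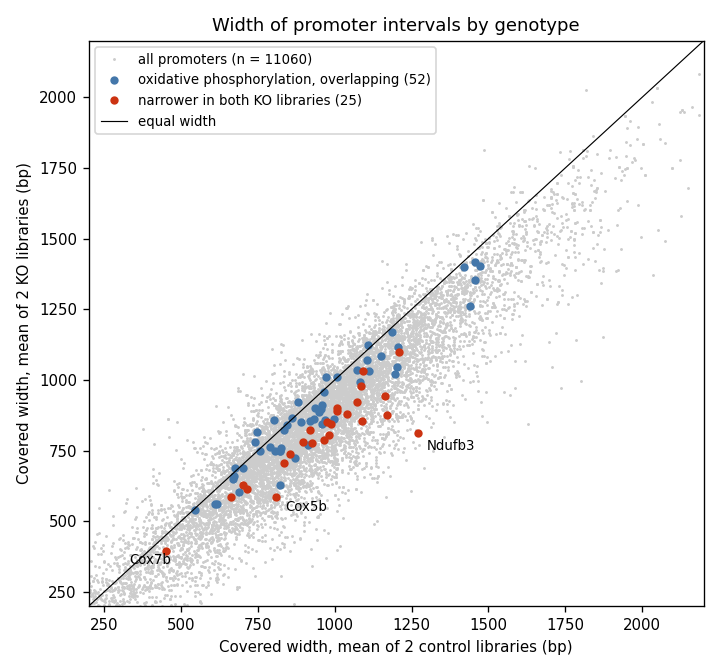
Covered width of promoter intervals, mean of the 2 KO libraries (y axis, bases) against mean of the 2 control libraries (x axis, bases), drawn from 200 to 2200 bases on each axis (wider and shorter ones are left off), for all promoters (grey) and the 77 promoters of the set (blue, or red where narrower in both KO libraries). Most points lie under the line of equal width, with Ndufb3 and Cox5b farthest from it among the labelled genes.

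Other genes of the pathway, from lists of assembly factors and regulators, were also open. All 33 listed promoters of assembly factors outside the symbol rule (Surf1, Sco1, Bcs1l, Sdhaf1 and others) had an interval in every library. Of these, 6 (18.2%) ranked higher and 6 (18.2%) lower in both KO libraries, 15 (45.5%) were narrower, and the median difference was -0.13 points. All promoters had 28.8% higher, 9.46% lower and 42.4% narrower, with a median difference of 0.48 points. Cycs, the gene of cytochrome c, had 99.7, 99.2, 99.8 and 99.5. Of 10 promoters of regulators such as Nrf1, Gabpa, Tfam and Yy1, 9 had an interval in all libraries, with 4 higher (44.4%), 0 lower and 4 narrower (44.4%). Ribosomal protein promoters had 36.5% higher and 42.9% narrower. Beta-oxidation enzymes, whose pathway CPT1A feeds with fatty acids, had 3 of 13 higher (23.1%), 1 lower (7.69%) and 7 narrower (53.8%). None of these differences between lists was tested.

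Away from promoters most regions of these genes were found in 1 library. Within the 99 genes and 1 kb on each side lay 315 merged regions, 95 of them promoter or leading regions. Of the other 220, 49 (22.3%) had an interval in all 4 libraries and 133 (60.5%) in 1 library. Over all regions, promoters included, 45.1% and 42.5% of the 315 did so, against 25.1% and 58.1% of the regions of all genes. Of the 315, regions in both controls and neither KO library numbered 6 (1.90%), against 2.47% of the regions of all genes, and regions in both KO libraries and neither control also 6 (1.90%), against 1.36%. The control-only regions lay in Atp5j, Cox4i2, Ndufb4c, Ndufv2, Sdhb and Uqcc2, with a fold of 1.67 to 4.87. The highest of them were Ndufb4c (percentile 70.6 in control 1) and Uqcc2 (64.1 in control 2). The KO-only regions lay in Atp5a1, Ndufa10 (2), Ndufab1 and Ndufaf5 (2), with a fold of 2.06 to 3.26 and a percentile of at most 49.3. When a −log10 q of 5 or more was required of intervals, 4 regions were found only in control and 0 only in KO.

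Of the regions that had an interval in all libraries and overlapped no promoter window, 38 lay in 23 genes with a listed promoter. Of these, 12 (31.6%) ranked higher in both KO libraries, against 20.5% of 29633 such regions of all genes, and 4 (10.5%) lower, against 16.4%. The 12 were spread over 8 genes, with 3 in the long gene Ndufaf2, 2 each in Ndufab1 and Uqcc1, and 1 each in Atp5b, Atp5l, Cox6a1, Cox7b2 and Uqcc2. The 4 lower ones lay in Ndufa8 (2), Cox6b1 and Sdha.

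The Sdha region had the highest mean percentile of the 38, and it was picked out after its values were seen. It lies inside the gene, 8732 to 9293 bases after the start (chromosome 13, 74340947 to 74341508, mm10). Its percentile was 99.2 and 98.4 in the controls and 95.5 and 93.7 in KO, with a fold of 21.5 and 19.3 against 14.3 and 11.8. The gap between genotypes (4.20 points) was larger than that between the libraries of either genotype, while the Sdha promoter overlapped between the genotypes. Over all genes, 712 regions outside promoters with an interval in all libraries stood at or above percentile 95 in both controls. Of these, 189 (26.5%) ranked lower in both KO libraries and 98 (13.8%) higher. They were chosen by high control ranks, which by itself favors lower KO ranks, so no conclusion is drawn from these shares.

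**Figure D5:**
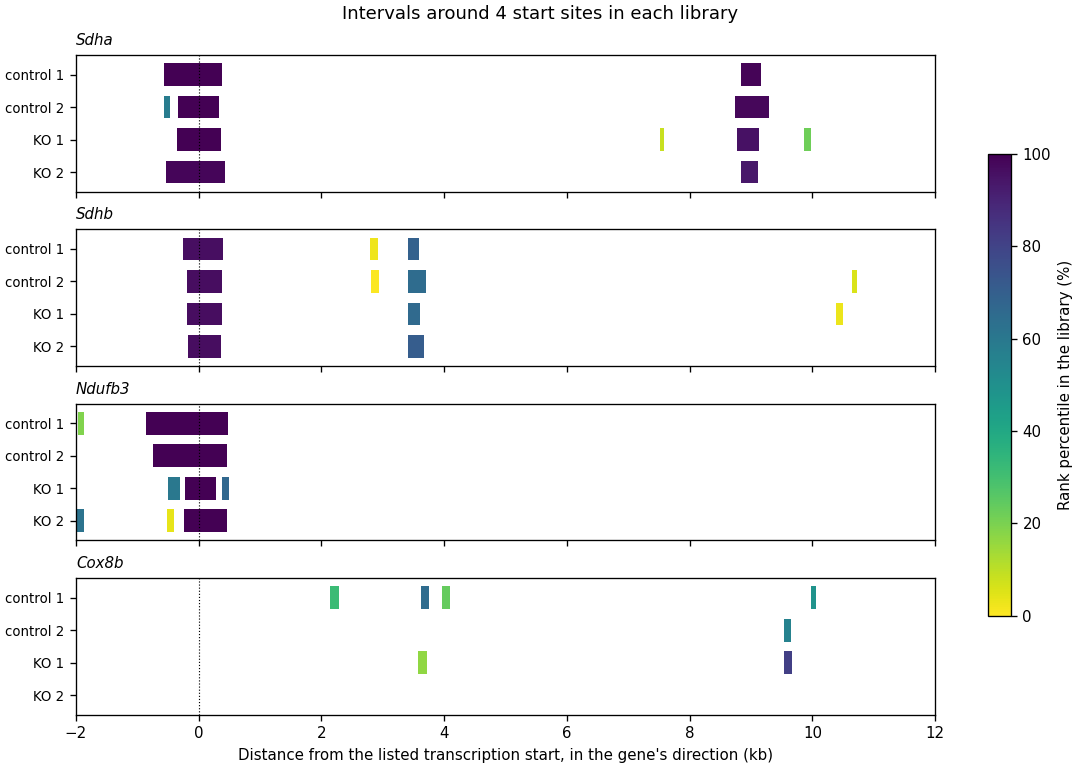
Intervals of the 4 libraries around the starts of Sdha, Sdhb, Ndufb3 and Cox8b, from 2 kb before to 12 kb after the start (x axis, kb in the direction of the gene), coloured by rank percentile in the library. Sdha has a second strong interval near 9 kb in every library, Ndufb3 has shorter intervals in KO, and no library has an interval at the start of Cox8b.

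For the 19 genes without a listed window, the leading interval (the highest-ranking region of the gene and 1 kb on each side) stood in for the promoter. Of these genes 16 had one in all 4 libraries, Cox8c in control 1, Ndufb4c in both controls (70.6 and 43.7) and neither KO library, and Cox6a2 in none. With them, 25 of 93 genes ranked higher in both KO libraries (26.9%, against 28.3% of 14433 genes treated alike), 9 lower (9.68%, against 9.91%), 32 were narrower (34.4%, against 42.1%) and 0 wider (against 4.79%). Among the 16, Ndufa4l2 and Ndufaf6 differed most upward (3.87 and 2.46 points), and Uqcrc2, a core subunit of complex III, was lower in both KO libraries.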

How the data were processed

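ATAC-Seq was done on sorted marrow cells, with 2 control and 2 KO libraries. The authors called peaks on each library. The submitters' processing notes name Bowtie2, MACS2 and mm10, and versions, settings and any shift of read ends are not given in the sources used here. The deposited fold is a ratio of signal at a summit to its background, and the deposited −log10 p (at least 2.0) and −log10 q belong to that summit. The lists hold no counts, so depth is unknown.

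Intervals were ranked within a library by highest fold, and intervals of the 4 lists overlapping by at least 1 bp were merged (Python 3.11.15, pandas 2.3.3, numpy 2.4.6). A promoter region is the highest-ranking merged region over the RefSeq window. The steps were tested on simulated lists. No test was run: without counts no count model could be fitted, and an exact permutation test of 2 against 2 libraries gives no p under 0.333.

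Alternatives were other rankings, a −log10 q threshold of 5, equal list lengths (240881 summits), other flanks, overlaps and widths, autosomes only and each library left out. The 19 genes without a window were added by leading region after seeing the data. Genes were named by rule: those probed as proteins, complex II, the highest and lowest of each group, those not open in all libraries, the 5 largest and 5 smallest rank differences, the 3 largest width differences, isoform pairs and genes with genotype-restricted regions. Members, lists and rules were chosen with earlier results of these data known.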

Additional observations from a re-analysis of the deposited data

How the results depend on the processing

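Read depth is unknown, and no test was run, so no count here has a p-value. No paired analysis was made, because no source used here ties libraries of the same number to each other. Ranking by −log10 p left 4 promoters lower in both KO libraries. Ranking among promoters left 13 higher. With only intervals whose −log10 q reached 5, the median rank difference reversed to -0.41 points, beside -0.76 points for all promoters. At that setting 14 promoters were lower, 12 higher and 1 wider, the median log2 width ratio was -0.16 and 0 regions were found only in KO. With 5 kb on each side of a gene, 10 regions were found only in control. Regions of all genes were not counted at these settings, so these region counts have no share beside them. With the strongest interval's width, the median log2 ratio was -0.21 and 1 promoter was wider. Every other setting kept the direction, and each such count was within 1.5 times the reported one. The causes were not tested.

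Leaving out a library makes it easier for genotypes not to overlap, so counts grew by construction. Promoters lower in KO numbered 13 (without KO 2) to 20 (without control 2 or KO 1), higher 29 (without KO 1) to 41 (without KO 2), narrower 37 (without KO 1) to 58 (without KO 2) and wider 2 (without KO 2) to 16 (without KO 1). Without control 1 there were 17 lower, 36 higher, 41 narrower and 5 wider, and without control 2 there were 38 higher, 43 narrower and 4 wider. The shares of all promoters grew too, to 17.8% to 27.0% lower, 38.8% to 54.2% higher, 56.8% to 63.7% narrower and 11.5% to 16.7% wider. The set's place beside them varied. Without KO 2, 75.3% of the set were narrower against 63.7% of all promoters, the reverse of the full comparison (32.5% against 42.4%). Without control 1, control 2 or KO 1 the set stayed below (53.2% against 56.8%, 55.8% against 61.1% and 48.1% against 56.8%). Without control 2, 49.4% were higher against 38.8%, and without KO 2, 53.2% against 51.4%. The set was below without control 1 (46.8% against 54.2%) and KO 1 (37.7% against 41.9%). Regions only in control ranged from 9 (without KO 2) to 49 (without control 2), with 38 without control 1 and 14 without KO 1. Regions only in KO ranged from 6 (without control 1) to 44 (without KO 2), with 32 without KO 1 and 11 without control 2. Regions of all genes were not counted with a library left out. The median log2 width ratio ranged from -0.16 (without KO 2) to -0.056 (without KO 1), and the median rank difference from 0.22 to 0.43 points.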
